A study of Mus musculus with 12 samples.

Results

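Translation initiation factors were examined in serum-starved, highly confluent 3T9MycER;YAP fibroblasts. The members are the rows of the deposited table whose symbol starts with Eif and a digit, and there were 54 of them among 21671 lines. RNA was sequenced from 12 libraries, with 3 in each of 4 groups. Cells received 400 nM OHT (4-hydroxytamoxifen, which activates the Myc fusion protein MycER) together with 2 µg/mL doxycycline (dox, which induces the activated mutant YAP S127A), or OHT alone, or dox alone, or mock treatment. 3T9 cells are immortalized mouse embryonic fibroblasts. Cells of all groups carried MycER and the vector for YAP S127A, delivered by retrovirus and selected with hygromycin. No vector-free cells with dox were analysed here, so an effect of YAP S127A and one of doxycycline itself cannot be told apart. Cells without MycER that received OHT were not analysed either, so the same holds for MycER and OHT itself.

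Initiation factors bring the small ribosomal subunit, the initiator tRNA and the mRNA together. eIF2 carries the initiator tRNA as a complex with GTP, and eIF2B recharges eIF2 with GTP after each round. Kinases that phosphorylate the alpha subunit of eIF2 turn it into an inhibitor of eIF2B. eIF3 is a scaffold of many subunits on the small ribosomal subunit. In the eIF4 group, eIF4E binds the cap of the mRNA, eIF4G bridges it to eIF3, and the helicase eIF4A unwinds the leader, while the eIF4E-binding proteins keep eIF4E from eIF4G. Eif4e is a long-known Myc target gene.

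The deposited values used here are the authors' means, each over the 3 libraries of a treatment and the 3 mock libraries, of counts divided by a size factor that corrects for depth. They are called the OHT+dox mean, the OHT mean and the dox mean below, and they carry no value per library. The spread between libraries is therefore not known from these means, no test was run on them, and total read numbers are unknown. Because the same mock libraries enter every mean, they drop out when 2 means on a common scale are subtracted, and 2 times the difference of the means is the difference between the treated groups. The ratio of the means is the least fold by which the observed levels of the treated groups can differ, since a count in mock cells cannot be negative. Every "at least" fold below is meant in this way. With counting error and the unknown spread between cultures, the true fold can be smaller. Levels in mock cells alone, and thus each treatment against mock, are not analysed here. An error is printed after ± for each difference. It is the largest standard error that counting reads alone allows, for group means in normalized counts, and does not include variation between cultures. The labels do not say whether the libraries of a group came from separate cultures.

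Size factors were 0.814 to 1.13 over all libraries. The cells had the transcripts of fibroblasts: of 7 markers in the list, 6 were well expressed, with Col1a2, a chain of type I collagen, at an OHT+dox mean of 5815, and Thy1 was below 1 in each mean. Markers of other cell types were near 0. The 3 muscle and 4 epithelial markers had means of at most 0.528 and 2.15, the 3 endothelial markers of at most 3.50, and among the 4 macrophage markers in the table Cd68, a lysosomal gene, reached 41.1, Csf1r 6.04 and Ptprc 0.671. The summed fibroblast markers were somewhat lower in the OHT+dox mean (23813) than in the OHT mean (24627) and the dox mean (25477), and whether this has a part in the results below was not tested. In bulk RNA, fewer cells of a type and less RNA per cell cannot be told apart.

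Of the 54 factors, 51 had a mean of at least 20 in each of the 3 means and were compared. Eif2s3y, the Y-linked copy of the eIF2 gamma subunit, was listed at 0 in each mean, and its X-linked partner Eif2s3x stood at 2934 in the OHT+dox mean. Eif4e1b, a homolog of Eif4e known from oocytes, had an OHT+dox mean of 0.177, an OHT mean of 0.497 and was listed at 0 in the dox mean. Eif4ebp3, the third eIF4E-binding protein, had means of 6.69, 8.21 and 6.53 in the same order.

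Levels were compared between genes only per kb of exon. The eIF3 and eIF4 groups had the highest median levels, at 635 and 591 normalized counts per kb in the OHT+dox mean, followed by eIF2 at 556. eIF2B was lower, at a median of 233, as were the eIF4E-binding proteins at 247 and the eIF2 kinases at 143. The helicase gene Eif4a1 had the highest level of all (1218 per kb) and Eif2b3, which encodes the gamma subunit of eIF2B, the lowest (45.9 per kb). Within eIF3, Eif3e stood at 811 and Eif3a at 796 per kb, and the 2 lowest were Eif3f at 214 and Eif3j1 at 168. Within the eIF4 group the highest level was 22.6 times the lowest, which belonged to Eif4g3 (53.9 per kb). The 4 eIF2 kinases lay close together, between 138 for Eif2ak1 and 154 for Eif2ak2. The exon lengths are from a later annotation than the one behind the counts, so genes with long or uncertain 3′ ends such as Eif3j1 are less sure. The last place of Eif2b3 rests on a length of 4028 bases, against 1605 to 2554 for the other eIF2B subunits. Eif4ebp2 was close to it, at 47.3 per kb. Exons of 16 factors overlap another gene, and since the library kit does not keep strand, reads of both genes cannot be told apart there. The overlapping gene is named below for only some of the 16.

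**Figure D1:**
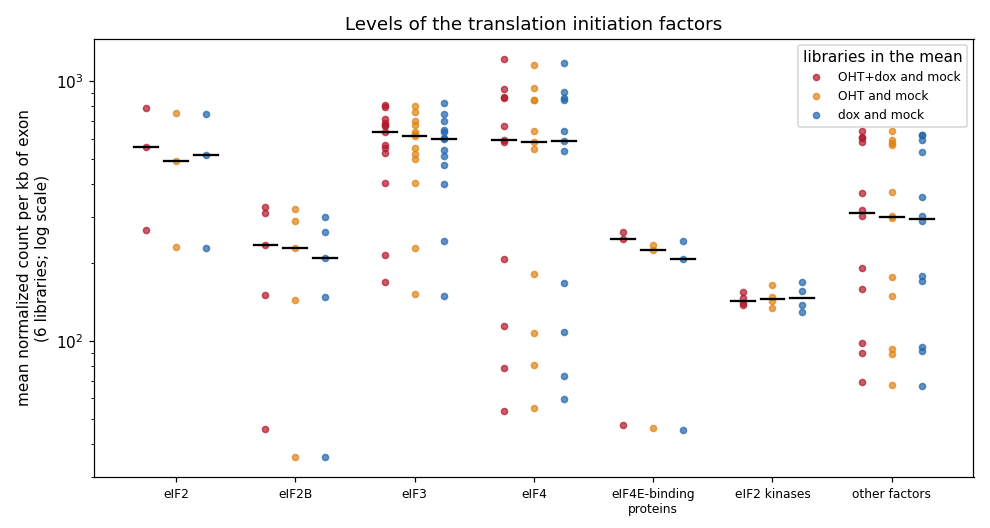
Mean normalized count per kb of exon (y axis, log scale) of the 51 factors, by group (x axis). Each point is a gene in the mean of OHT+dox and mock (red), OHT and mock (orange) or dox and mock (blue) libraries, and black bars are medians, which were 635, 613 and 599 for eIF3.

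The initiation factors most often had their highest mean with OHT+dox, by steps that were mostly under the threshold used below. The OHT+dox group had the highest level of the 3 treated groups for 38 of 51 factors (74.5%), where this held for 34.2% of all 11324 genes compared. The order OHT+dox, then OHT, then dox was found for 27 factors (52.9%, against 24.7% of all genes). The order OHT, then dox, then OHT+dox was found for 0 of the 51 factors and for 13.6% of all genes. The steps were small: the median log2 ratio of the means was 0.05 for OHT+dox against OHT, 0.07 for OHT+dox against dox and 0.01 for OHT against dox, where over all genes it was 0.00, 0.00 and 0.01.

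**Figure D2:**
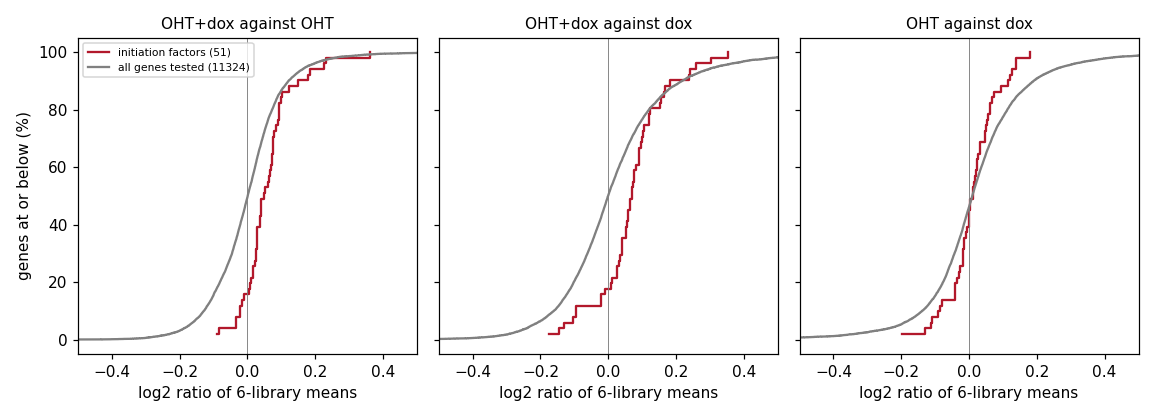
Share of genes (y axis, %) at or below a log2 ratio of 6-library means (x axis) for the 51 initiation factors (red) and all 11324 genes compared (grey), from left to right for OHT+dox against OHT, OHT+dox against dox and OHT against dox. In the panels with OHT+dox most of the red curve lies right of the grey one, with medians of 0.05 and 0.07 against 0.00 for all genes.

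A factor was counted as higher or lower when the log2 ratio of the means was at least 0.1 in size, that is, when the observed levels of the treated groups differed at least 1.07-fold. With OHT+dox against OHT, 8 of 51 factors were higher (13.3% of all genes were) and 0 were lower (15.5% of all genes). With OHT+dox against dox, 15 were higher (23.4% of all genes) and 4 were lower (20.3%). With OHT against dox, 6 were higher (22.6% of all genes) and 4 were lower (15.2%). The number of higher factors is thus near the background for either comparison of OHT+dox. The number of lower factors is below the background in these comparisons. Among genes with means of at least 100, which all 51 factors had, that background was smaller. There 11.7% were lower and 13.0% higher with OHT+dox against OHT, and 18.4% and 22.0% with OHT+dox against dox. In all, 43 of 51 factors had a positive log2 ratio with OHT+dox against OHT, compared with 5707 of the 11324 genes, and 42 had one with OHT+dox against dox, compared with 5648. Of 28 other translation genes, described below, 22 and 23 had a positive log2 ratio in the same order. Set against counting error, 24 factors were higher and 2 lower by more than 2 times its upper limit with OHT+dox against OHT (17.6% and 13.8% of all genes). With OHT+dox against dox these numbers were 29 and 6 (24.2% and 22.4% of all genes). With OHT against dox they were 11 and 7, compared with 2382 and 2187 of the 11324 genes. Passing this limit depends on read depth. All 51 factors had means of at least 100, whereas the compared genes go down to a mean of 20. All genes are therefore not a like background for these counts.

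**Figure D3:**
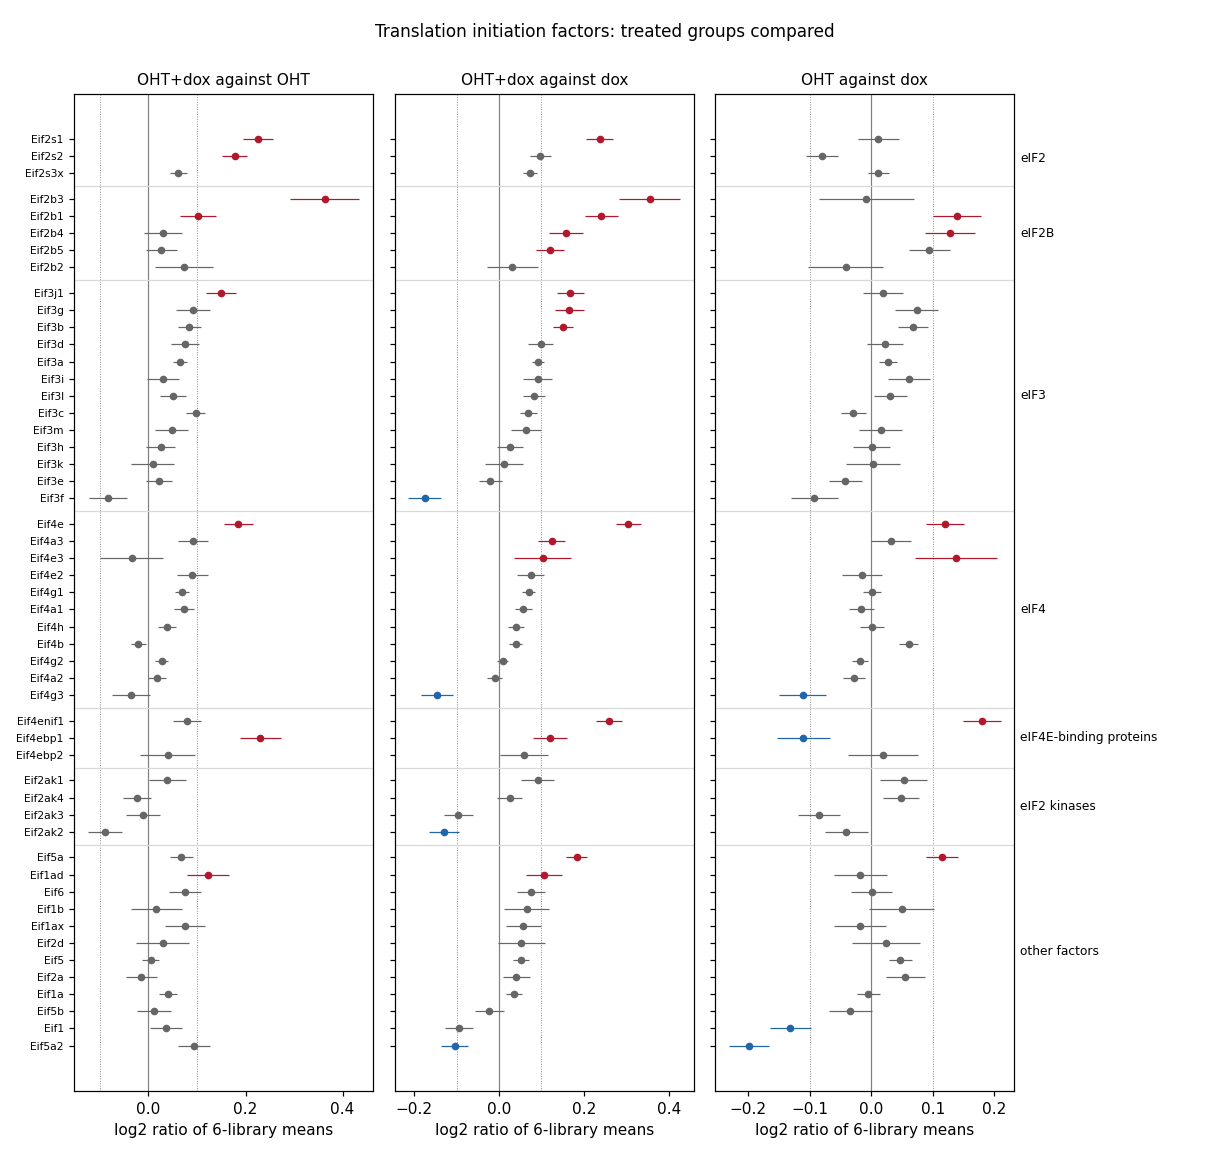
Log2 ratio of 6-library means (x axis) of each of the 51 factors (rows, by group) for OHT+dox against OHT, OHT+dox against dox and OHT against dox. Red points are at 0.1 or more, blue points at −0.1 or less (dotted lines), and bars are the upper limit of the counting error. Eif2b3 lies farthest right in the panels with OHT+dox, at 0.36 and 0.35.

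Among the 3 expressed eIF2 subunits, 2 were higher with OHT+dox against OHT (Eif2s1 and Eif2s2) and 1 with OHT+dox against dox (Eif2s1). Of all genes, 13.3% and 23.4% were higher in these comparisons. Eif2s1 (chr12:78861819-78887010, + strand, GRCm38) encodes the alpha subunit, whose phosphorylation holds back initiation. Its OHT+dox, OHT and dox means were 913, 781 and 775 normalized counts. The OHT+dox group therefore exceeded the OHT group by 265 ± 37.3 normalized counts and the dox group by 277 ± 37.2, which is at least 1.17-fold and 1.18-fold. OHT and dox alone lay within counting error of each other for this gene, at a difference of 12.4 ± 35.7. Eif2s2, the beta subunit, had an OHT+dox mean of 1413, an OHT mean of 1249 and a dox mean of 1320.2. OHT+dox exceeded OHT by 327 ± 46.7 and dox by 185 ± 47.3, and OHT lay 142 below dox (difference −142 ± 45.9). For Eif2s3x, the gamma subunit, the means were 2934, 2811 and 2788, and the log2 ratios with OHT+dox (0.06 against OHT and 0.07 against dox) did not reach the threshold. All 3 expressed eIF2 subunits were thus highest with OHT+dox.

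In eIF2B, OHT+dox against dox gave 4 of 5 subunits higher (23.4% of all genes) and 0 lower (20.3%), at a median log2 ratio of 0.16. Eif2b3 (chr4:117019402-117087306, + strand, GRCm38) had the largest log2 ratio of the 51 factors in both comparisons of OHT+dox. Its OHT+dox mean was 185, against 144 for both the OHT and the dox mean, so the treated groups differed by 82.1 ± 16.4 (OHT+dox minus OHT) and 80.6 ± 16.4 (OHT+dox minus dox), at least 1.29-fold and 1.28-fold. The difference of OHT and dox alone was −1.58 ± 15.4. In rank, 99.2% of all genes had a lower log2 ratio than Eif2b3 with OHT+dox against OHT and 95.7% with OHT+dox against dox. In Eif2b1, Eif2b4 and Eif2b5 the order was OHT+dox, then OHT, then dox. Eif2b1, the alpha subunit, had means of 625 (OHT+dox), 582 (OHT) and 529 (dox). Eif2b4, the delta subunit, had 558, 547 and 500.3. Eif2b5, the catalytic epsilon subunit, had 835, 819.8 and 768. For these genes OHT alone lay above dox, by 107 ± 30.2, 92.5 ± 29.3 and 104 ± 36.1, and this equalled 55.6%, 80.4% and 77.6% of the gap between OHT+dox and dox. For Eif2b3 the corresponding share was −1.96%. Such shares are given without error. With no mock level they do not measure how much OHT contributed. Eif2b2, the beta subunit, had means of 242, 230 and 237, and its differences stayed below the threshold in each comparison. Exons of Eif2b4 overlap those of Snx17 on the opposite strand, so part of its reads may belong to that gene.

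The eIF2 kinases were not higher as a group. With OHT+dox against dox their median log2 ratio was −0.04, with 0 of 4 higher (23.4% of all genes) and 1 lower (20.3%). The lower one was Eif2ak2, the interferon-induced kinase PKR, which senses double-stranded RNA (its exons overlap those of Gm26637). Its means were 666 (OHT+dox), 708 (OHT) and 728 (dox), so that OHT+dox lay below dox by 125 (difference −125 ± 33.8) and below OHT by 85.2 (difference −85.2 ± 33.5). For Eif2ak3, the endoplasmic reticulum stress kinase PERK, the difference of OHT+dox and dox was −96.9 ± 34.6, just under the threshold at a log2 ratio of −0.10. Eif2ak1, the heme-regulated kinase, had a difference of 72.6 ± 30.7 and Eif2ak4, the amino acid sensor GCN2, of 34.9 ± 40.6. Exons of Eif2ak1 overlap those of Aimp2 and Ankrd61, and exons of Eif2ak3 those of Gm43292.

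eIF3 had 13 expressed subunits, of which 12 had a positive log2 ratio with OHT+dox against OHT and 11 with OHT+dox against dox, at medians of 0.05 and 0.08. Eif3j1, a loosely bound subunit, had means of 909 (OHT+dox), 819 (OHT) and 809 (dox), with OHT+dox above OHT by 179 ± 37.6 and above dox by 199.7 ± 37.5. Exons of this gene overlap those of Spg11 and of Gm47314, and reads of its close copy Eif3j2, which has no row in the table, may not be told apart from its own. Eif3g, an RNA-binding subunit, and Eif3b, a core scaffold subunit, were higher in OHT+dox than in dox by 162 ± 34.0 and 311 ± 49.2. Their means were 747, 701 and 666 for Eif3g and 1558, 1470.4 and 1403 for Eif3b. Eif3a, the largest subunit, had the highest means of the group (4081, 3902 and 3830.3) with log2 ratios of 0.06 and 0.09, under the threshold. Eif3f was the exception. It was lowest with OHT+dox, at means of 538, 570.03 and 608, and lay below dox (difference −139 ± 30.6, at least 1.13-fold). Its partner in the complex, Eif3h, had means of 927, 911 and 911, which differ by less than counting error. Eif3k, a subunit at the edge of the complex, was likewise level at 436, 434 and 433. With OHT against dox, 0 of 13 subunits passed the threshold in either direction (22.6% of all genes were higher and 15.2% lower).

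**Figure D4:**
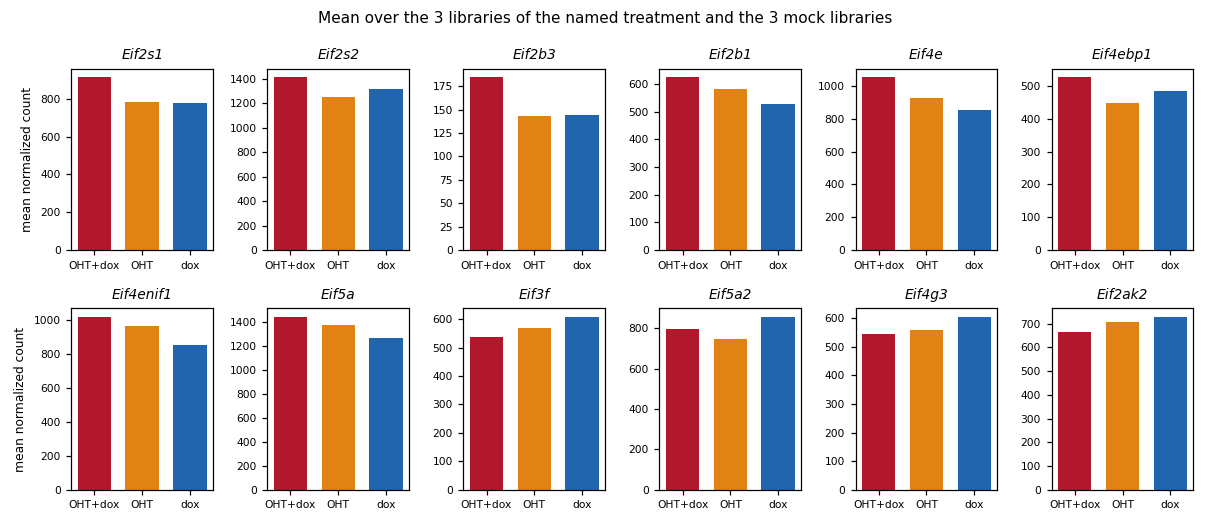
Mean normalized count (y axis, from 0) over the 3 libraries of OHT+dox (red), OHT (orange) or dox (blue) and the 3 mock libraries, for 12 of the 21 factors past the threshold in any comparison. The shared mock libraries draw the bars of a gene together, and Eif4e stands at 1055, 928 and 854.

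In the eIF4 group the cap-binding protein gene Eif4e (chr3:138526179-138559696, + strand, GRCm38) had the largest log2 ratio in both comparisons of OHT+dox (0.18 against OHT and 0.30 against dox). Its means were 1055 (OHT+dox), 928 (OHT) and 854 (dox), and the treated groups were ordered accordingly: OHT+dox exceeded OHT by 254 ± 40.3 and dox by 401 ± 39.5 (at least 1.14-fold and 1.24-fold), and OHT exceeded dox by 148 ± 38.2. The difference of OHT and dox thus equalled 36.8% of the gap between OHT+dox and dox. The cap-binding homolog Eif4e2 had means of 852, 801 and 809, below the threshold. Eif4e3, another homolog with exons that overlap Gm20696, had 198, 203 and 185, with OHT above dox by 37.0 ± 17.8 and OHT+dox above dox by 27.3 ± 17.7, which is less than 2 times the limit of its counting error. The helicase genes showed small steps. Eif4a3, whose product is part of the exon junction complex rather than of the cap-binding complex, was higher with OHT+dox than with dox by 146 ± 37.2 (means of 882, 828 and 809.5), while Eif4a1 (2161, 2054 and 2077) and Eif4a2 (2741, 2708 and 2760.1) stayed under the threshold. These helicases are close in sequence, and some of their reads may be shared. Exons of Eif4a2 also overlap those of Rfc4. Among the scaffolds, Eif4g1 had means of 4069.8, 3882 and 3878 and Eif4g2, which supports cap-independent initiation, 4728, 4641 and 4699.8. Eif4g3 was lower with OHT+dox and with OHT than with dox, at means of 545, 559 and 603, with differences of −116 ± 30.7 and −89.2 ± 30.8. The RNA-binding cofactors of eIF4A, Eif4b (3819.6, 3875 and 3716) and Eif4h (2367, 2305 and 2302), were within the threshold in each comparison.

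The proteins that bind and restrain eIF4E did not move as a block between OHT and dox. Eif4ebp1, the repressor that mTOR phosphorylates, had means of 526 (OHT+dox), 449 (OHT) and 484 (dox). OHT+dox exceeded OHT by 155 ± 28.3 and dox by 84.0 ± 28.8, and OHT lay below dox (difference −71.2 ± 27.6). Eif4enif1, which shuttles eIF4E into the nucleus, had means of 1016, 962 and 849.7. OHT+dox exceeded dox by 334 ± 39.1 and OHT exceeded dox by 225 ± 38.5, which equals 67.5% of the gap between OHT+dox and dox. Eif4ebp2 had means of 274, 266 and 263, with log2 ratios of 0.02 to 0.06.

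Of 12 other factors, 2 were higher (23.4% of all genes) and 1 was lower (20.3%) with OHT+dox against dox. Eif5a, the hypusine-bearing factor that helps ribosomes over difficult peptide bonds, had means of 1440.4 (OHT+dox), 1374 (OHT) and 1269 (dox), with OHT+dox above dox by 343 ± 47.1 and OHT above dox by 211 ± 46.5. Its paralog Eif5a2 had a different order. Its means were 797, 747 and 857, the lowest with OHT, and OHT lay below dox (difference −219.8 ± 36.2). OHT+dox lay below dox as well (difference −119.6 ± 36.8). Eif1, which guards start codon selection, was also lower with OHT than with dox (means of 768, 749 and 821, difference −143 ± 35.9). Eif1ad, a nuclear protein with an eIF1A-like domain, had means of 489, 449 and 455 and was higher with OHT+dox than with OHT by 79.9 ± 27.7 and than with dox by 68.9 ± 27.8. Its exons overlap those of Banf1 on the opposite strand. Eif5 and Eif5b, which act in GTP hydrolysis and subunit joining, had means of 2709.8, 2701 and 2614 and of 698, 693 and 709.6, under the threshold. Eif6, which keeps ribosomal subunits apart and acts in 60S maturation, had 786, 746 and 746, with log2 ratios of 0.07 for OHT+dox against OHT and 0.08 against dox. Eif2a and Eif2d, alternative carriers of initiator tRNA, had log2 ratios between −0.01 and 0.06. Eif2d had the lowest level of these 12 per kb (69.2 in the OHT+dox mean), with means of 286, 280.5 and 276. Eif1a, Eif1ax and Eif1b lay between −0.02 and 0.07, and reads of the near-identical Eif1a and Eif1ax may be shared.

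Myc and its partner Max bind the E-box CACGTG, so promoters of the factors were searched for it. RefSeq windows of 300 bases (GRCm38.p6, 250 before and 50 after a transcription start) matched 43 of 54 factors. CACGTG, which reads the same on both strands, was present in a window of 10 of these 43 (23.3%), against 12.1% of the 8568 compared genes with a window. Counted per window it was in 12 of 56 (21.4%), against 7.15% of all 32851 windows. The count per window is less even, since a site of Eif5a falls in overlapping windows and counts in each. All windows also include those of genes that were not compared. GGAATG, the core of the TEAD site, was searched on both strands, can share at most 1 base with the E-box, and was present for 4 of 43 factors (9.30%), against 14.3% of genes. The factors with CACGTG did not share a direction: with OHT+dox against dox 2 were higher (Eif4e and Eif5a), 2 were lower (Eif3f and Eif5a2) and 6 were within the threshold, at a median log2 ratio of 0.06. These numbers are near the background, as 23.4% of all genes were higher and 20.3% lower. Of the 32 compared factors with a window but without the motif, 10 were higher and 2 lower, at a median of 0.07. Eif2s1, Eif2s2 and Eif2b1 were among those without it, and Eif2b3 was not matched. A match of letters is not a binding site.

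Stretches around the motif are shown for the 4 of these factors past the threshold and for Eif4a1 and Eif4g1, which encode the eIF4F partners of eIF4E. They run 5′ to 3′ on the strand of the gene, with CACGTG in capitals. They lie at chr3:138527172-138527241 (Eif4e, + strand), chr11:69921423-69921492 (Eif5a, − strand), chr3:28781128-28781197 (Eif5a2, + strand), chr7:108934315-108934384 (Eif3f, + strand), chr11:69672575-69672644 (Eif4a1, − strand) and chr16:20672641-20672710 (Eif4g1, + strand), all in GRCm38.p6 and outside the exons of the gene. The motif starts 64 bases before a start site of Eif4e and 74 before one of Eif5a. The second of 2 motifs of Eif5a2 starts 117 bases before its start site, and the distances are 68 for Eif3f, 189 for Eif4a1 and 54 for Eif4g1.
Eif4e: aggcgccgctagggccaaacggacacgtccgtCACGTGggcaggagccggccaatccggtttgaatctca
Eif5a: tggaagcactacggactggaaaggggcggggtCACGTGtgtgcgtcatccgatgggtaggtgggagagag
Eif5a2: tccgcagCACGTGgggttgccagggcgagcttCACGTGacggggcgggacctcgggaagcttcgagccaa
Eif3f: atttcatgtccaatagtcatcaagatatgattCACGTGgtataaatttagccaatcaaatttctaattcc
Eif4a1: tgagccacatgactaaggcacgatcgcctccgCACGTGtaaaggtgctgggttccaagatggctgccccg
Eif4g1: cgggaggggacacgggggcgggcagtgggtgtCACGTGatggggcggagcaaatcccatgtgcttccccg

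Compared with each other, the groups differed in where they stood. The median log2 ratio of OHT+dox against OHT was 0.18 for eIF2, 0.07 for eIF2B, 0.05 for eIF3 and 0.04 for eIF4, and with OHT+dox against dox the medians were 0.10, 0.16, 0.08 and 0.06. For OHT against dox eIF2B had a median of 0.09, and eIF2, eIF3 and eIF4 had 0.01, 0.02 and 0.00. With 3 and 5 genes in eIF2 and eIF2B, these medians rest on few genes, and the differences between groups were not tested.

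Other genes of translation, elongation and release factors and regulators of initiation, were compared in the same way. Of 30 in the list 28 had a mean of at least 20, and with OHT+dox against dox 11 were higher (23.4% of all genes) and 1 was lower (20.3%), at a median log2 ratio of 0.05. Eef1e1, a component of the tRNA synthetase complex, stood out at 0.48 (means of 374, 333 and 268), followed by the poly(A)-binding protein gene Pabpc4 at 0.31. The lower one was Ppp1r15a (−0.12), which encodes GADD34, a stress-induced regulatory subunit of the phosphatase that dephosphorylates eIF2 alpha. The main elongation factors were level, with Eef1a1 at means of 2939, 2898 and 2937 and Eef2 at 5051, 4995 and 5013. With OHT+dox against OHT, the release factor genes Etf1 and Gspt1 were higher, at 0.16 and 0.17, and Mknk2, a kinase that phosphorylates eIF4E, was lower at −0.16. In this list of 28, 22 genes had a positive log2 ratio with OHT+dox against OHT (median 0.04) and 23 with OHT+dox against dox. A lean towards OHT+dox was thus not particular to the initiation factors.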

How the data were processed

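Total RNA went into RNA-seq libraries with no poly(A) selection step, and the kit keeps no strand. Tools credited to the submitters' processing notes are TopHat2 2.0.8 (mm9), SAMtools, featureCounts 1.4.5-p1 and DESeq2. No gene annotation is named there. The table that the authors deposited gives, for each of 3 comparisons with mock, the mean normalized count over 6 libraries, a log2 fold change, an adjusted p-value and a call. The last kinds, 9 columns of the authors' own comparisons, were not used, so the tests against mock that needed values per library were not run.

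Size factors came from genes whose only read lay in 1 library (365 genes for mock and 1052 for treated libraries), whose mean is 1 read divided by 6 size factors. The OHT and dox means were multiplied by 0.979 and 0.999 to reach the mock scale of the OHT+dox mean. The single mock libraries put these factors within a range of 0.758% and 0.944%. Lines with a repeated symbol (4) were left out. The steps were tested on simulated data. Genes with a mean of at least 20 in each mean (11324) were compared, and a log2 ratio of at least 0.1 was counted. All members enter the counts, and values are given for those past this threshold in any comparison (21) and the highest and lowest of each group. Some members near the threshold were added for contrast after their values were seen, as were the 12 genes plotted singly. Exon lengths were from GENCODE M21 (GRCm38). The members and lists were chosen with earlier results of these data known. Python 3.11.15, numpy 2.4.6 and pandas 2.3.3 were used.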

Additional observations from a re-analysis of the deposited data

How the results depend on the processing

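The median log2 ratio of the factors kept its sign in each comparison, at 0.02 to 0.05 for OHT+dox against OHT, 0.07 for OHT+dox against dox and 0.00 to 0.04 for OHT against dox. Another threshold, or a minimum mean of 100, which all 51 factors passed, could not move this median. With the median of all genes set to 0 it was 0.002 for OHT against dox, so its sign there carries no information. With the means as deposited, which puts the comparisons on slightly different mock scales, 2 factors were lower with OHT+dox against OHT in place of 0 and 2 in place of 4 with OHT against dox, and the split over all called genes moved to 27.8% higher for OHT+dox against OHT (46.2% on the common scale) and to 72.7% for OHT against dox (59.7%). The 43 positive log2 ratios with OHT+dox against OHT, and the 38 factors highest with OHT+dox, also rest on the common scale. Eif2b4 and Eif2b5, for example, had log2 ratios of 0.030 and 0.026 there and −0.001 and −0.005 with the means as deposited. The median of all genes moved too, from 0.00 to −0.03. These counts were not repeated with the means as deposited. Without a minimum mean, 52 factors had a value above 0 in each mean, and 1 of them (Eif4ebp3) was lower with OHT+dox against OHT. Eif4e1b, at 0 in the dox mean, was not among the 52. Its OHT+dox mean of 0.177 lay below its OHT mean of 0.497. The counts depend on the threshold. At a log2 ratio of 0.05, 25 were higher and 2 lower with OHT+dox against OHT (27.7% and 28.6% of all genes), 33 and 6 with OHT+dox against dox (34.8% and 33.3%), and 13 and 7 with OHT against dox (35.3% and 27.7%). At 0.2, 3 were higher and 0 lower with OHT+dox against OHT (3.84% and 3.08% of all genes), 5 and 0 with OHT+dox against dox (11.3% and 6.46%), and 0 and 0 with OHT against dox (9.18% and 5.28%). The other alternatives left these counts within 1.5 times. No paired analysis was possible because the table carries no value per library, and for the same reason leaving out a replicate, edgeR and DESeq2 fits were not run. Depth limits single differences: over the factors, the upper limit of the counting error was 1.87% to 11.4% of the average of the OHT and dox means. The spread between cultures is unknown, so differences of this size may not repeat.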
